A study of Mus musculus with 10 samples.

Results

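The cytosolic and mitochondrial heat-shock chaperones described here are 10 genes, taken by symbol from the 18022 genes listed over all libraries, each with 1 row in the tables and with transcripts in every library. From their textbook roles, 5 are mainly constitutive (Hspa8, Hsp90ab1, Dnaja1, Hspd1 and Hspe1) and 5 are mainly stress-induced (Hspa1a, Hspa1b, Hsph1, Hsp90aa1 and Dnajb1). They were measured by CEL-seq2, which primes on the poly(A) tail and counts molecules by random barcodes near the 3′ end, in crypts from the small intestine of C57Bl/6 mice. The 3 picked libraries (titles JC) hold doublets or triplets of cells that stayed attached after mild dissociation and were placed in wells by mouth pipette. The 7 sorted libraries hold single cells put in wells by sorting, with titles GK5a for replicates 1 to 5 and GK5b for replicates 6 and 7. The labels give no treatment, genotype, age or sex, and do not say which animal a library came from, so the p-values rest on the spread between plates, which may be technical.

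Heat-shock chaperones bind unfolded stretches of protein and release them for folding in cycles driven by ATP. HSP70 proteins take up clients with the help of HSP40 partners and of nucleotide exchange factors such as HSP110, HSP90 proteins receive a subset of clients at a later stage, and the HSP60 and HSP10 proteins form the folding chamber of the mitochondrial matrix. The constitutive members serve newly made proteins in growing cells. The stress-induced members are switched on by heat-shock factors, which bind inverted repeats of the bases GAA before the start of the gene, and transcripts of this kind are known to appear in tissue that is cut, warmed or dissociated.

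The windows before the start are shown for the member with the largest change, for its near copy and for the mitochondrial pair, because they carry the inverted repeats. RefSeq windows (GRCm38.p6, 250 bases before to 50 after a start) were on hand for 7 of the 10 members, and both strands were searched for GAANNTTC or TTCNNGAA, the repeat of 2 units, and for GAANNTTCNNGAA or TTCNNGAANNTTC, the repeat of 3 units that contains it. The 7 members have 12 windows, 1 for each start. The 2-unit repeat was found in 7 of these 12 windows, which belong to 6 of the members, and the 3-unit repeat for 3 of the members, while 15.1% and 0.603% of all 32851 windows held them. These shares are per window and not per member. The matches are not all separate sites either, as both windows of Hsph1 hold the same ones, Hspd1 and Hspe1 share theirs, and Hspa1a and Hspa1b are near copies. The bases before the start are printed 5′ to 3′, with the matches in capitals; those of Hspa1a (chr17:34972157-34972406) and Hspa1b (chr17:34959239-34959488) run on the minus strand, and those of Hspe1 (chr1:55087898-55088147) on the plus strand.
Hspa1a: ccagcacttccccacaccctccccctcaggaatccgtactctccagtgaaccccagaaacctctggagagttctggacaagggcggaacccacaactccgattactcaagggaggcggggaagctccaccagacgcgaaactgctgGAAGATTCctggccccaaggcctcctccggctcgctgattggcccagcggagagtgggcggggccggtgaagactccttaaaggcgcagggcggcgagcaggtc
Hspa1b: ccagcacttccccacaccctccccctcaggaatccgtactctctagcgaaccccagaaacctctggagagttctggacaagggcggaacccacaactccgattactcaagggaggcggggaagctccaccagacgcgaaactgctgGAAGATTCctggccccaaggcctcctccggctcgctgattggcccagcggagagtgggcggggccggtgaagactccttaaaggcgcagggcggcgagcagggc
Hspe1: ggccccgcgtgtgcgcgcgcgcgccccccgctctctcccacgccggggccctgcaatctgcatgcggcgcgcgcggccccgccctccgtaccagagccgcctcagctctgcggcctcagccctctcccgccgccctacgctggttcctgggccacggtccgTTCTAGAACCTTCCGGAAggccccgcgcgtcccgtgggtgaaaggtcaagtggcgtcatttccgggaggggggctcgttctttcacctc
The Hspa1a and Hspa1b sequences differ at 3 positions, and in both the match lies from 104 to 97 bases before the start. The Hspe1 match spans chromosome 1 positions 55088059 to 55088076, and the same bases lie from 144 to 127 before a start of Hspd1, which is transcribed the other way from the shared region. Dnaja1 had a single 2-unit match and Hsph1 had 3 with a 3-unit repeat, in part after its start, while the windows of Dnajb1 held no match to these letters. A match is a description of the sequence and not evidence of binding in these cells.

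Wells with at least 1000 endogenous transcripts were used, 501 in picked libraries (122 to 200 a library) and 1615 in sorted libraries (189 to 264). They held 821829 to 1232614 transcripts per picked library and 1022859 to 4832581 per sorted library. All libraries expressed the epithelial markers Epcam, at 460.0 to 674 CPM of library totals in picked libraries and 874 to 1533 CPM in sorted ones, and Krt8, at 1599 to 2155 CPM in picked and 1752 to 3133 CPM in sorted libraries. The groups also differed in other transcripts. The ribosomal RNA precursor Rn45s took 25570 to 40230 CPM of picked and 2610 to 9259 CPM of sorted libraries, the nuclear RNA Malat1 347 to 685 CPM of picked and 977 to 2507 CPM of sorted libraries, and the Paneth markers 0.999 to 13.0% of picked and 0.414 to 1.69% of sorted transcripts. Stem markers made up 0.0473 to 0.0822% of transcripts in picked libraries and 0.0880 to 0.179% in sorted ones. The female transcript Xist reached 115 to 155 CPM in picked and 0 to 0.980 CPM in sorted libraries, while the Y-linked Ddx3y was at 0 CPM in the picked and at 60.7 to 100.2 CPM in the sorted ones. Sex, title code, handling and number of cells per well thus change together with the group and cannot be told apart, and the part of each of the other differences in the results was not tested. Summed over a library, fewer cells of a type and less RNA per cell cannot be told apart either.

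The first question was how the chaperones differ between attached groups of cells placed by pipette and single cells placed by sorting. Of the 10 members, 8 were higher in picked libraries and none was lower (limma on log2 of CPM + 1, adjusted p under 0.05, with CPM the transcripts scaled to a common total by TMM), where 14.4% of all 10427 genes tested were higher and 15.7% lower. The 8 were all 5 stress-induced members and the constitutive Hspa8, Hspe1 and Dnaja1. The median log2 fold change of the members was 0.79, against -0.07 for all genes. Each of the 8 had all 3 picked libraries above all 7 sorted libraries, an arrangement found for 13.5% of all genes, while Hsp90ab1 and Hspd1 overlapped between the groups.

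**Figure D1:**
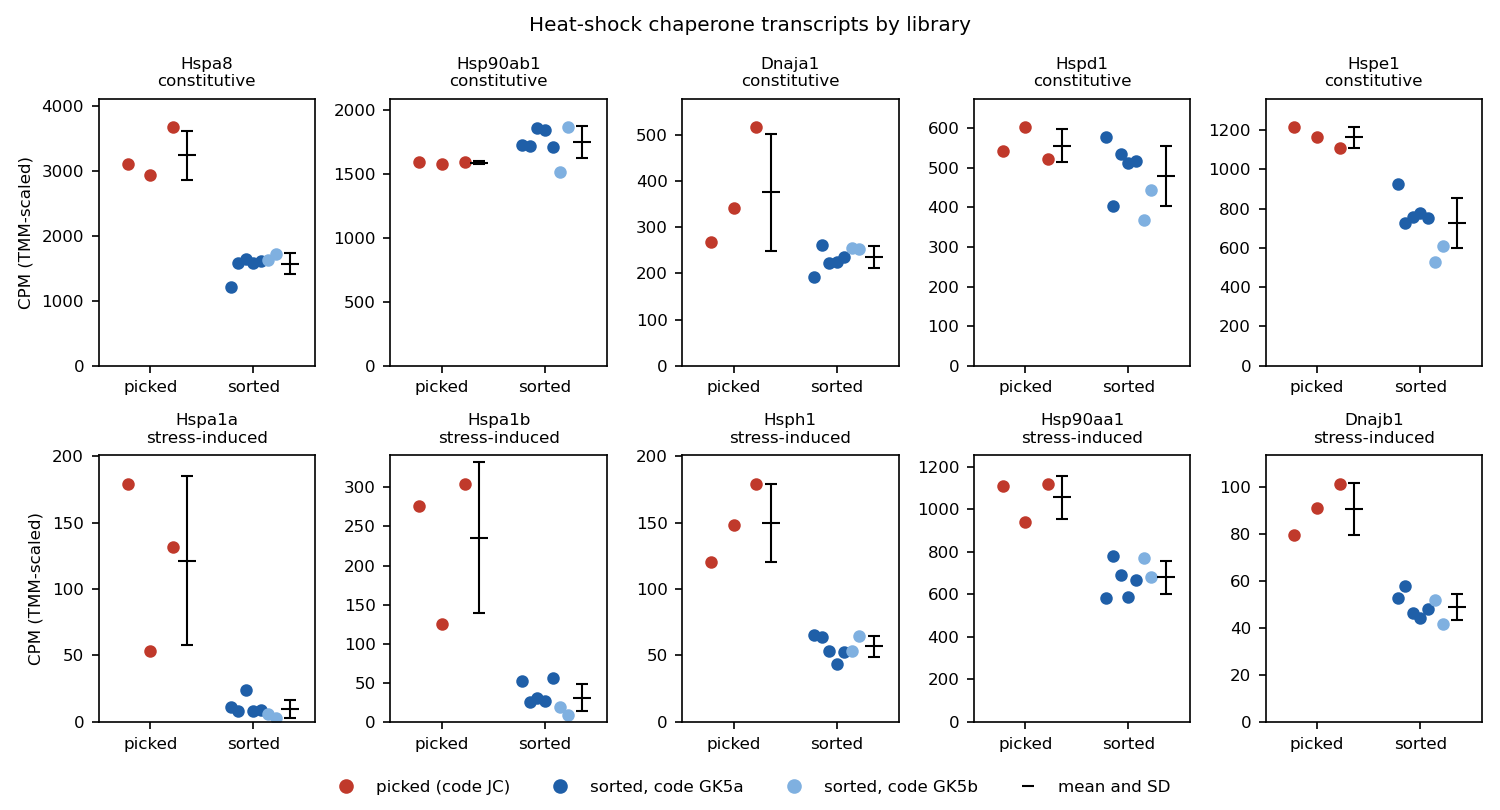
Level of each member in each library, in TMM-scaled CPM on axes from 0, with picked libraries left of sorted ones; points are libraries, bars are the mean and SD, and GK5b libraries are in the lighter blue. The 3 picked points lie above all 7 sorted points for 8 members, while for Hsp90ab1 and Hspd1 the groups overlap.

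Among the HSP70 proteins, Hspa1a and Hspa1b, the adjacent stress-induced HSP70 genes on chromosome 17, differed most. In the GRCm38 annotation, Hspa1a spans chr17:34969190-34972156 and Hspa1b chr17:34956436-34959238, both on the minus strand. Hspa1a was measured at 179, 53.1 and 132 CPM in picked replicates 1, 2 and 3, against a lowest, median and highest level of 3.00, 8.38 and 23.8 CPM in sorted libraries. Its mean was 121 ± 63.8 CPM in picked libraries (SD, n = 3) and 9.87 ± 6.66 CPM in sorted libraries (SD, n = 7), a 12.3-fold ratio and a log2 fold change of 3.52 ± 0.48 (SE; limma, adjusted p = 0.000221). Even the lowest picked library, replicate 2, was above the highest sorted library. Hspa1b had 277, 125 and 305 CPM in the picked replicates, against 8.36, 26.2 and 55.6 CPM as lowest, median and highest sorted level. That is a 7.58-fold ratio of means and a log2 fold change of 2.99 ± 0.48 (limma, adjusted p = 0.000701). Picked replicate 2 was again the lowest of its group for Hspa1b, and the groups did not overlap. Within the sorted group, GK5a libraries averaged 12.1 CPM of Hspa1a and 38.1 CPM of Hspa1b, and GK5b libraries 4.37 and 13.5 CPM. The coding parts of these genes are nearly the same, but none of the 50-base windows in the last 500 bases of either transcript occurs in another gene, near which CEL-seq2 reads lie.

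Hspa8, the constitutive HSP70 (chr9:40800984-40810087, plus strand), had 3107, 2943 and 3671 CPM in the picked replicates, against 1212, 1616 and 1726 CPM as lowest, median and highest sorted level. The means of 3241 ± 382 CPM in picked libraries (SD, n = 3) and 1572 ± 166 CPM in sorted libraries (SD, n = 7) gave a log2 fold change of 1.04 ± 0.13 (limma, adjusted p = 0.000137). The gap between these means was larger than those of Hspa1a and Hspa1b put together. Of the 50-base windows in its last 500 bases, 81.8% also occur in other annotated genes, mostly in Gm15459, which makes its count uncertain where reads of such copies were shared out. Hsph1, the HSP110 exchange factor of HSP70, had 121, 148 and 179 CPM in the picked replicates, against 44.0, 53.6 and 65.5 CPM as lowest, median and highest sorted level. All picked libraries were thus above the sorted ones by a wide margin, with a log2 fold change of 1.37 ± 0.17 (limma, adjusted p = 9.8e-05).

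The HSP40 partners, which deliver clients to HSP70 and trigger its ATPase, were both higher in picked libraries. Dnajb1, the stress-induced HSP40, had 79.6, 91.2 and 102 CPM in the picked replicates, against 41.8, 48.1 and 57.8 CPM as lowest, median and highest sorted level, a log2 fold change of 0.88 ± 0.14 (limma, adjusted p = 0.000824). The constitutive Dnaja1 had 269, 342 and 516 CPM in picked replicates, against 193, 236 and 262 CPM as lowest, median and highest sorted level, with a log2 fold change of 0.63 ± 0.18 (limma, adjusted p = 0.0185). Picked replicate 1 stood just above the highest sorted library for Dnaja1, and picked replicate 3 was far higher. Without picked replicate 3 the log2 fold change was 0.36 and the call was lost (limma, adjusted p = 0.105), and against GK5b libraries alone it was 0.54 and not called (limma, adjusted p = 0.198).

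The HSP90 genes gave different calls. Hsp90aa1, the inducible HSP90, had 1108, 942 and 1121 CPM in the picked replicates, against 584, 684 and 779.8 CPM as lowest, median and highest sorted level (log2 fold change 0.64 ± 0.13; limma, adjusted p = 0.00312). Hsp90ab1, the constitutive HSP90, had 1591, 1576 and 1594 CPM in the picked replicates, against 1512, 1723 and 1862 CPM as lowest, median and highest sorted level. Its log2 fold change of -0.13 ± 0.11 was not called (limma, adjusted p = 0.368), and the picked libraries lay inside the sorted range.

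The mitochondrial pair also gave different calls. Hspe1, the HSP10 lid of the chamber (chr1:55088132-55091307, plus strand), had 1213, 1166 and 1109 CPM in the picked replicates, against 527, 753 and 927 CPM as lowest, median and highest sorted level (log2 fold change 0.70 ± 0.16; limma, adjusted p = 0.00579). Its GK5b mean was 568 CPM and its GK5a mean 788 CPM, and 53.2% of the 50-base windows in its last 500 bases occur in other annotated genes. Hspd1, the HSP60 that forms the chamber wall (chr1:55077835-55088243, minus strand), had 544, 602 and 522 CPM in the picked replicates, against 367, 513 and 578 CPM as lowest, median and highest sorted level. Its log2 fold change of 0.23 ± 0.15 was not called (limma, adjusted p = 0.269), and 2 of the picked libraries lay within the range of the sorted ones.

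**Figure D2:**
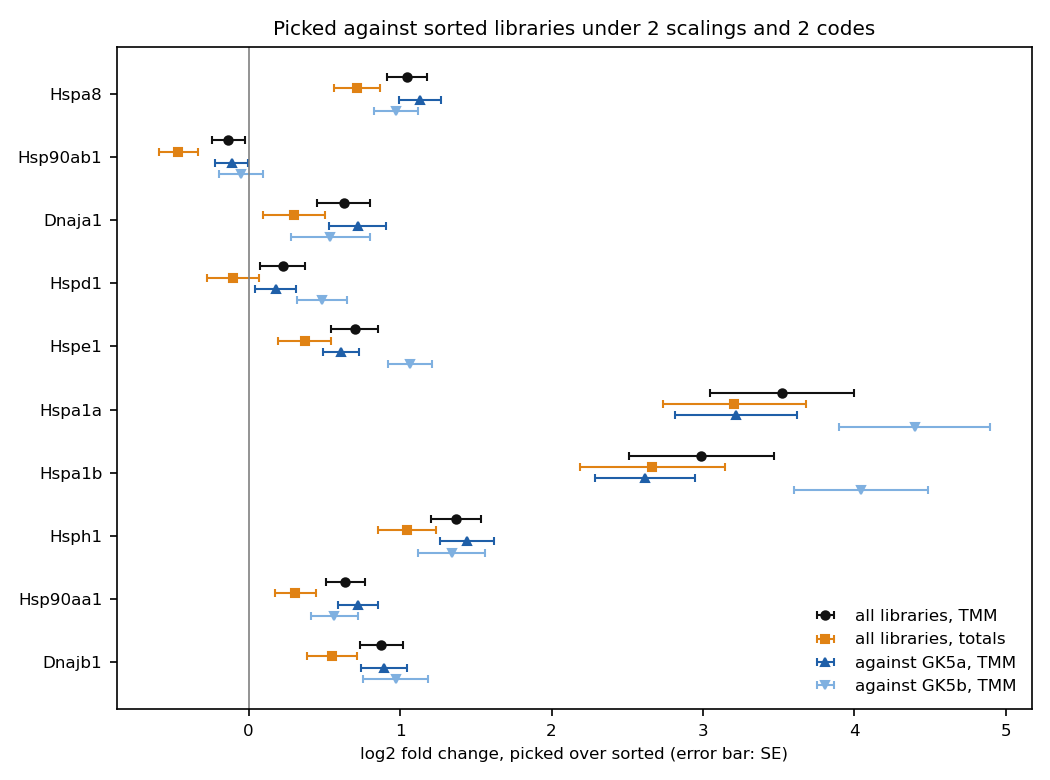
Log2 fold change of each member, picked over sorted, with its standard error, over all libraries with TMM or with library totals, and with TMM against GK5a or GK5b libraries alone. Hspa1a and Hspa1b lie farthest to the right, at 3.52 and 2.99 over all libraries with TMM, and Hspd1 moves from 0.23 with TMM to -0.10 with totals.

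The scaling set how many members passed. TMM, the trimmed mean of M values used here, equates the bulk of genes, and picked libraries got TMM factors of 0.756 to 0.912 and sorted libraries of 1.01 to 1.11. Scaled by library totals instead, the median of all genes was at -0.39 on the log2 scale, 5 members were higher (Hspa8, Hspa1a, Hspa1b, Hsph1 and Dnajb1) and 1 was lower, where 8.24% of all genes were higher and 32.8% lower. Hspe1 (log2 fold change 0.37), Hsp90aa1 (0.31) and Dnaja1 (0.30) were then not called, Hsp90ab1 was called lower at -0.46 (limma, adjusted p = 0.0135), and Hspd1 turned to -0.10 without a call.

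Ratios between members of the same library do not depend on that scaling. These ratios, chosen after their values were seen, compare counts of 3′ ends, which are not divided by length. Hsp90aa1 transcripts per Hsp90ab1 transcript came to 0.697, 0.597 and 0.703 in picked replicates, against 0.319 to 0.511 in sorted libraries. Hspe1 per Hspd1 came to 2.23, 1.94 and 2.12 in picked replicates, against 1.37 to 1.80 in sorted libraries, and Hspa8 per Hsp90ab1 to 1.95, 1.87 and 2.30 in picked, against 0.704 to 1.08 in sorted libraries. For these pairs every picked library lay above every sorted one, but each sets a member called higher with TMM over a member not called. The separation is thus no separate support for those calls, and other gene pairs were not counted. The windows that Hspe1 and Hspa8 share with other genes limit these ratios too. Hspa1a per Hspa8 came to 0.0577, 0.0180 and 0.0359 in picked replicates, against 0.00170 to 0.0145 in sorted libraries. Hspa1a per Hspa1b, at 0.648, 0.424 and 0.433 in picked replicates and 0.162 to 0.778 in sorted libraries, overlapped.

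**Figure D3:**
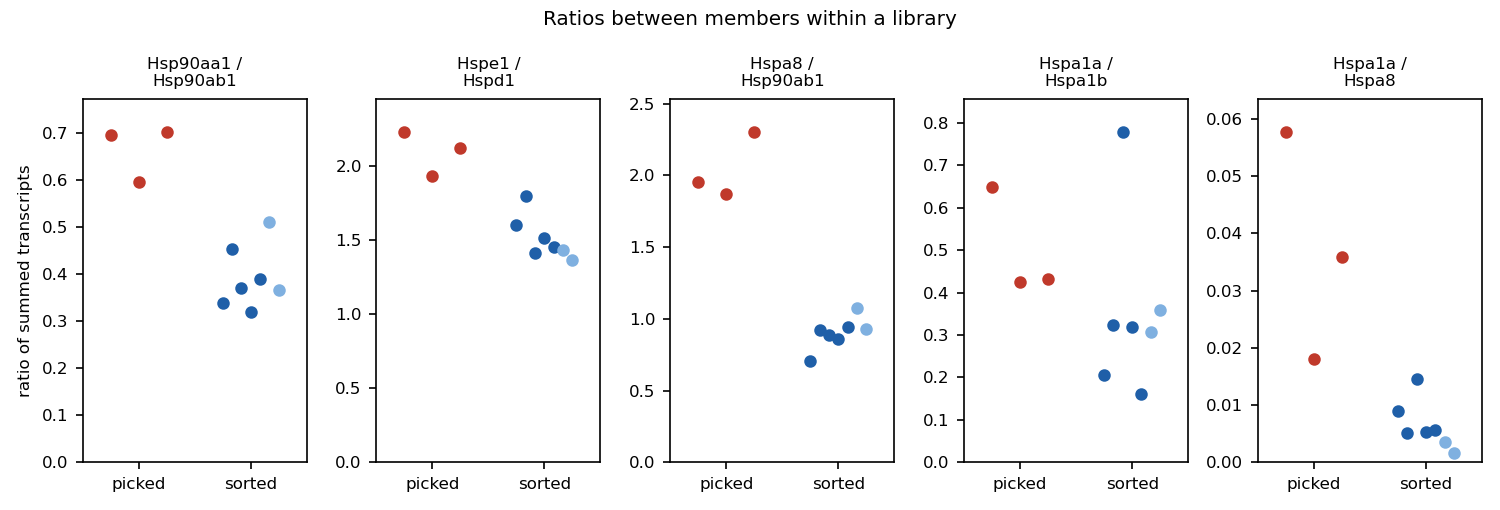
Ratio of the summed transcripts of member pairs in each library, picked left of sorted, with GK5b libraries in the lighter blue. The picked libraries lie above all sorted libraries for every pair shown except Hspa1a over Hspa1b, where the sorted libraries span 0.162 to 0.778.

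Summed over members, the stress-induced genes made up 0.130, 0.122 and 0.167% of transcripts in picked replicates 1, 2 and 3, against 0.0757 to 0.0998% in sorted libraries. Hspa1a and Hspa1b alone gave 0.0335, 0.0160 and 0.0396% in the picked replicates, against 0.00120 to 0.00700% in sorted libraries. The constitutive sum was 0.4934, 0.593 and 0.672% in the picked replicates, against 0.434 to 0.553% in sorted libraries. The difference of the constitutive means, 0.0787 percentage points, was 0.219 with ribosomal protein genes, Rn45s and Paneth markers taken out of the total, 0.125 without picked replicate 1 and 0.0357 without picked replicate 3. Picked replicate 1, whose constitutive sum lay inside the sorted range, was also the library with 13.0% of its transcripts from Paneth markers.

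Levels by cell type were then compared within libraries. Wells were put in a class by the share of their transcripts from marker lists that hold no member, and wells of no differentiated class are called progenitor-like; the stem-like wells are those of them with at least 0.2% of transcripts from stem markers. In the sorted libraries, goblet-like wells (mucus-secreting cells) had lower levels of 6 of the 10 members than progenitor-like wells, and higher levels of none (limma with library as a block; 23.4% of 9158 genes were lower and 18.3% higher). The members' median log2 fold change was -0.65, against -0.15 for all genes. Hspd1 averaged 275 ± 66.6 CPM in goblet-like and 634 ± 46.8 CPM in progenitor-like wells (SD, n = 7 libraries; log2 fold change -1.24 ± 0.10; limma, adjusted p = 3.5e-07). Hspe1 averaged 456 CPM in goblet-like and 938 CPM in progenitor-like wells, Hspa8 1169 ± 203 and 1909 ± 296 CPM, and Hsp90ab1 1489 ± 105 and 2069 ± 123 CPM, each in the same order of classes and each lower in 7 of 7 libraries. Hsp90aa1 (log2 fold change -0.57) was lower in 7 of 7 libraries and Hsph1 (-0.60) in 6 of 7. Dnajb1 averaged 59.9 CPM in goblet-like and 49.8 CPM in progenitor-like wells and was not called (limma, adjusted p = 0.165). Dnaja1, Hspa1a and Hspa1b were not called either, with log2 fold changes of -0.24, -0.92 and -0.72. Dnaja1 was called lower without sorted replicate 1 or 4 (-0.29 in both), and Hspa1b without sorted replicate 1 or 3 (-0.96 and -0.89) and at the halved marker threshold (-0.81). With class totals 8 members were lower, with Dnaja1 at -0.50 and Hspa1b at -0.97. The share of all genes lower at that scaling is not given here, so this count cannot be set against it.

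Enterocyte-like wells, the absorptive cells, had larger log2 fold changes. In the 5 GK5a libraries with enough such wells, 7 of the 9 members tested were lower than in progenitor-like wells and 1 was higher (28.1% of 7103 genes were lower and 24.5% higher). The median log2 fold change of the members was -1.67, against -0.29 for all genes. Hspd1 averaged 106 ± 43.2 CPM in enterocyte-like and 633 ± 50.6 CPM in progenitor-like wells (SD, n = 5 libraries; log2 fold change -2.66 ± 0.24; limma, adjusted p = 5.2e-05). Hsp90ab1 averaged 424 ± 141 CPM in enterocyte-like and 2063 ± 81.3 CPM in progenitor-like wells, and Hspe1 221 ± 38.8 and 967 ± 99.4 CPM in the same order. Hspa8 averaged 801 ± 193 CPM in enterocyte-like and 1758 ± 200 CPM in progenitor-like wells (log2 fold change -1.16 ± 0.13; limma, adjusted p = 0.000158), so that among enterocyte-like wells Hspa8 exceeded Hsp90ab1, while among progenitor-like wells Hsp90ab1 was the higher of the pair. Hsph1 and Hsp90aa1 had log2 fold changes of -1.67 and -1.52. Hspa1b, at 18.6 ± 18.1 CPM in enterocyte-like and 42.7 ± 15.9 CPM in progenitor-like wells, passed narrowly (limma, adjusted p = 0.0468) and was lost without sorted replicate 3, 4 or 5, at log2 fold changes of -1.74, -1.74 and -2.91. It was also lost in the fit without the library block (limma, adjusted p = 0.0799) and with the marker threshold doubled (-3.11) or halved (-1.38). The HSP40 genes did not follow the rest. Dnaja1 averaged 322 ± 78.2 CPM in enterocyte-like and 224 ± 20.6 CPM in progenitor-like wells, higher in 5 of 5 libraries (log2 fold change 0.50 ± 0.14; limma, adjusted p = 0.0160). Without sorted replicate 1, 2 or 5 it was not called, at log2 fold changes of 0.44, 0.33 and 0.29, and with class totals it was 0.13. Dnajb1 averaged 50.5 CPM in enterocyte-like and 49.6 CPM in progenitor-like wells and was not called (limma, adjusted p = 0.959).

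Of the 9 members tested in stem-like wells against the other progenitor-like wells, 6 were not called. Hsp90ab1 averaged 2827 ± 143 CPM in stem-like and 2000 ± 53.0 CPM in the other progenitor-like wells, higher in 7 of 7 libraries (SD, n = 7; log2 fold change 0.50 ± 0.04; limma, adjusted p = 5.0e-09). Hsp90aa1 was also called higher, at 992 CPM in stem-like and 863 CPM in other progenitor-like wells, and Dnaja1 lower, at 234 CPM in stem-like and 306 CPM in other progenitor-like wells (limma, adjusted p = 0.000378). These are 2 members higher and 1 lower of 9 tested, where 16.8% of 7709 genes were higher and 20.5% lower, and the Hsp90aa1 call was lost without sorted replicate 4 (log2 fold change 0.15; limma, adjusted p = 0.0535) and in the fit without the library block (limma, adjusted p = 0.256). Hspa8 was called higher without sorted replicate 6 (0.17) and Hspe1 without sorted replicate 5 (0.15).

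**Figure D4:**
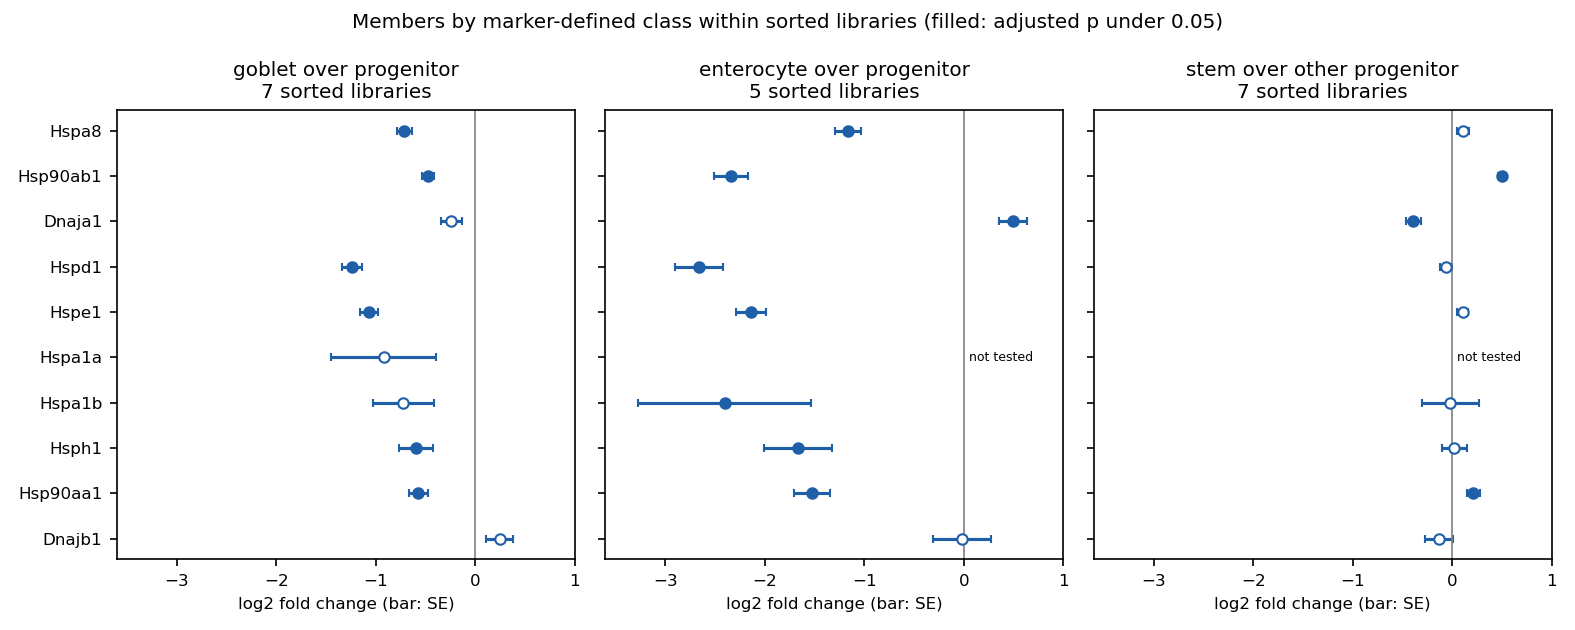
Log2 fold change of each member within sorted libraries for goblet-like, enterocyte-like and stem-like wells over progenitor-like wells, with the standard error; filled points have an adjusted p under 0.05. Hspd1 is farthest left for goblet-like (-1.24) and enterocyte-like wells (-2.66), and Hsp90ab1 is farthest right for stem-like wells (0.50).

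Paneth-like, enteroendocrine-like, tuft-like and immune-like wells were too few to test and are given as pooled levels in CPM of the total transcripts, with no error. Hspa8 was at 1271 CPM in 28 picked and 505 CPM in 27 sorted Paneth-like wells, and Hspd1 at 203 CPM in picked and 123 CPM in sorted ones. Picked replicate 1 gave 82.5% of the picked Paneth-like transcripts, and without it the picked wells held 1485 CPM of Hspa8. Hspa1a and Hspa1b together were at 160 CPM in the picked Paneth-like wells, at 67.35 CPM without replicate 1 and at 0 CPM in replicate 2. Enteroendocrine-like wells held 3388 CPM of Hspa8 in 11 picked and 1750 CPM in 46 sorted wells, and 968 CPM of Hspa1a and Hspa1b together in the picked and 19.2 CPM in the sorted wells. A single well of picked replicate 1 gave 64.7% of the picked enteroendocrine-like transcripts, and the other 10 picked wells held 3784 CPM of Hspa8 and 623 CPM of the pair. Of these 10 wells, the 4 of replicate 2 held 0 CPM of the pair and the 6 of replicate 3 held 1146 CPM. Tuft-like wells held 1575 CPM of Hspa8 in 3 picked and 1675 CPM in 26 sorted wells. They held 590 CPM of Dnaja1 in the picked and 449 CPM in the sorted wells. Immune-like wells held 679 CPM of Hspa8 in 10 picked and 1764 CPM in 19 sorted wells, so Hspa8 was not higher in picked wells of these classes. The picked values rest on 16 Hspa8 transcripts in tuft-like and 13 in immune-like wells. In picked libraries a well holds several cells that may be of different types. There, goblet-like wells showed no member called against progenitor-like wells, where 3.55% of 5571 genes were called. At an unadjusted p under 0.05 were 3 of the 10 members and 899 of the 5571 genes. Hspe1 came nearest, at 805 ± 157 CPM in goblet-like and 1223 ± 41.3 CPM in progenitor-like wells (SD, n = 3; log2 fold change -0.62; limma, adjusted p = 0.0505), and it was called without picked replicate 2 (-0.79).

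The difference between picked and sorted libraries was then taken within wells of the same class, which are not matched for stem markers. Stem-like wells were 21 of 336 progenitor-like wells in picked and 417 of 882 in sorted libraries. In sorted libraries, stem-like wells had more Hsp90ab1 and less Dnaja1 than the other progenitor-like wells. The part of this in the values below was not tested. Among progenitor-like wells, 8 members were higher in picked libraries and none was lower, with Hsp90ab1 and Hspd1 again the members not called (16.6% of 9630 genes were higher and 17.2% lower). Hspa8 had 3710, 3374 and 4043 CPM in picked progenitor-like wells, against 1468, 1910 and 2424 CPM as lowest, median and highest sorted level (log2 fold change 0.93 ± 0.14; limma, adjusted p = 0.000116). Hspa1a had 232, 62.0 and 133 CPM in picked progenitor-like wells, against 3.32, 10.2 and 28.6 CPM as lowest, median and highest sorted level (log2 fold change 3.57 ± 0.49; limma, adjusted p = 6.1e-05). Hspd1, with 665, 675 and 629 CPM in picked and 587 to 732 CPM in sorted progenitor-like wells, lay inside the sorted range, and its log2 fold change was 0.02 with TMM and -0.29 with class totals. Dnaja1 was not called without picked replicate 2 or 3 (0.54 and 0.36), and against GK5b libraries alone Dnaja1 and Hsp90aa1 were not called (0.19 and 0.31). With class totals 5 members were higher and 2 lower, counts that cannot be weighed, as the share of all genes is not given for them. Dnaja1, Hspe1 and Hsp90aa1 were then not called (0.22, 0.24 and 0.24). Hsp90ab1 was called lower at -0.52 (limma, adjusted p = 0.00097), and so was Hspd1. Among goblet-like wells, 8 members were again higher and none lower (11.0% of 4766 genes were higher and 13.1% lower). Hspd1 was among them, with 457, 633 and 454 CPM in picked against 182 to 377 CPM in sorted goblet-like wells (log2 fold change 1.00 ± 0.22; limma, adjusted p = 0.00556), and Hsph1 was not (0.96 ± 0.38; limma, adjusted p = 0.0782), unless picked replicate 1 was left out (1.31). Hspa8 had 2576, 2464 and 3832 CPM in picked and 745 to 1294 CPM in sorted goblet-like wells. Of the goblet-like calls, that of Hspa1a was lost without picked replicate 3 (log2 fold change 3.99), that of Hsp90aa1 without picked replicate 3 (0.63) and that of Dnajb1 without picked replicate 1 or 2 (1.07 and 0.81). Against GK5b libraries alone, Dnaja1, Hsp90aa1 and Dnajb1 were not called (0.91, 0.94 and 1.40), against GK5a libraries alone Dnajb1 was not (1.07), and with doubled marker thresholds Dnaja1 and Dnajb1 were not (0.47 and 1.02). The change itself was not shown to differ between the classes. Tested per library as goblet-like minus progenitor-like, no member was called, where 1.21% of 8322 genes were called. At an unadjusted p under 0.05 were 1 of the 10 members and 1543 of the 8322 genes. For Hspd1 the goblet-like minus progenitor-like difference was 0.89 ± 0.31 (limma, adjusted p = 0.168).

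The last question was how many wells carry the higher levels. Every well was thinned to 1000 transcripts, so that depth did not set the count; a picked well counts when any of its cells held the transcript, so a share of wells is not a share of cells. At least 1 transcript of Hspa1a or Hspa1b was found in 31 of 122, 33 of 179 and 51 of 200 wells of picked replicates 1, 2 and 3, which are 25.4% (exact 95% interval 17.96 to 34.1%), 18.4% (13.0 to 24.9%) and 25.5% (19.6 to 32.1%). Sorted libraries had 0.766 to 5.61% of wells with either transcript. The mean share was 23.1 ± 4.05% of wells in picked libraries (SD, n = 3) and 3.16 ± 1.68% in sorted libraries (SD, n = 7), and these intervals cover counting error only. At full depth, the shares were 33.0 to 59.0% of wells in picked and 7.59 to 14.6% in sorted libraries. GK5a libraries averaged 4.04% and GK5b libraries 0.951% of wells at 1000 transcripts.

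Counted singly, Hspa1a was found in 12.3, 6.15 and 11% of wells of the picked replicates, against 0 to 1.29% in sorted libraries (exact permutation test, two-sided, p = 0.0167, the smallest that 120 splits allow; adjusted over 11 shares, p = 0.0458). In sorted replicates 6 and 7 it was found in 0 of 264 and 0 of 261 wells, which limits the share of wells with a transcript among 1000 to 1.14 and 1.15% and says nothing of full depth, where the sorted libraries had 2.61 to 5.15% of wells with one. Hspa1b was found in 16.4, 14.5 and 19.5% of the picked wells, against 0.766 to 5.14% of the sorted ones, and Hsph1 in 8.20, 10.1 and 12% of the picked wells, against 2.58 to 7.01% of the sorted ones, with the same p. Shares of wells were counted for the members alone, so how many of all genes separate the groups in this way is not known. Hspa8 was found in 73.8, 86.0 and 90% of picked wells, against 58.2 to 79.0% of sorted ones, which overlap (exact permutation test, two-sided, p = 0.05; adjusted, p = 0.0917). Dnajb1 was found in 6.56, 5.03 and 9% of picked wells, against 2.12 to 6.08% of sorted ones (exact permutation test, p = 0.0333; adjusted, p = 0.0733), and Dnaja1 in 18, 29.6 and 29.5% of picked wells, against a mean of 19.2% and at most 24.2% of sorted ones (adjusted p = 0.131). Hsp90ab1 had a lower mean share in picked libraries, at 65.6, 75.4 and 70% of wells, against 71.4 to 77.7% in sorted libraries (adjusted p = 0.183). Hspd1 was found in 22.95, 35.8 and 34.5% of picked wells, against 20.1 to 40.2% of sorted ones. The shares of Hspe1 were 52.5, 48.6 and 50.5% in picked libraries, against 34.8 to 55.0% in sorted ones, and those of Hsp90aa1 49.2, 48.6 and 49.5% in picked libraries, against 42.0 to 51.3% in sorted ones. None of these shares passed the test, and all overlapped between the groups. The median well held 2, 3 and 3 Hspa8 transcripts per 1000 in the picked replicates and 1 or 2 in sorted libraries.

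The wells with Hspa1a or Hspa1b mostly held few of these transcripts. At 1000 transcripts, a well with any held 1.61, 1.39 and 1.51 on average in picked replicates 1, 2 and 3 and 1.00 to 1.86 in sorted libraries, where 1 is the least possible. A few wells held many at full depth: the highest single well had 51 of 412, 14 of 131 and 37 of 460 transcripts in the picked replicates. The 10% of wells with the most held 64.0, 67.4 and 59.7% of the thinned Hspa1a and Hspa1b transcripts in the picked replicates, against 100% in every sorted library, where fewer than 10% of the wells had any. The wells with the pair were found in most classes. In picked libraries they were 77 of 336 progenitor-like wells (22.9%, exact 95% interval 18.5 to 27.8%), 20 of 71 goblet-like (28.2%, 18.1 to 40.1%), 5 of 26 enterocyte-like (19.2%), 4 of 11 enteroendocrine-like (36.4%) and 5 of 28 Paneth-like wells (17.9%). In sorted libraries they were 28 of 882 progenitor-like (3.17%, 2.12 to 4.56%), 12 of 480 goblet-like (2.50%), 4 of 99 enterocyte-like (4.04%) and 0 of 27 Paneth-like wells (exact upper limit 12.8% at 1000 transcripts); at full depth these Paneth-like wells together held 11.7 CPM of the pair. Immune-like wells, all of picked replicate 1 in the picked group, had the pair in 0 of 10 picked wells (exact upper limit 30.85% at that depth) and in 3 of 19 sorted wells (15.8%).

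**Figure D5:**
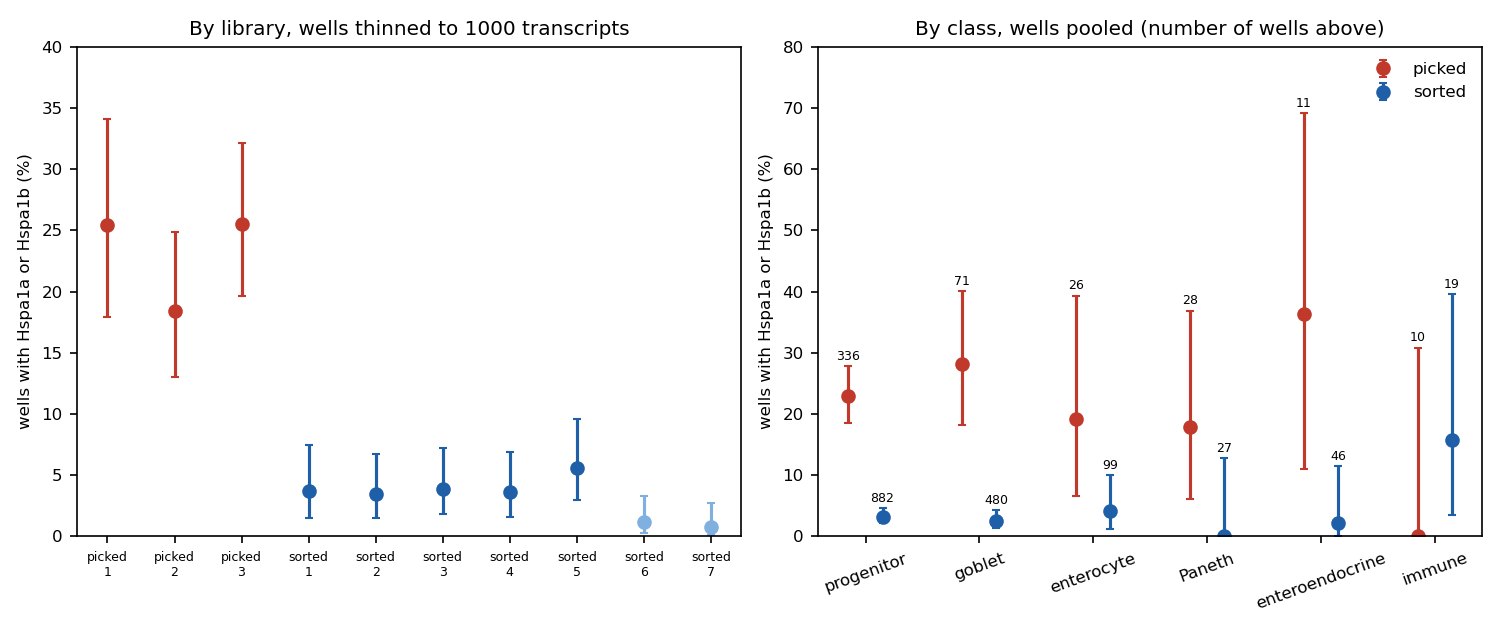
Percent of wells with at least 1 transcript of Hspa1a or Hspa1b after thinning to 1000 transcripts, by library and by class pooled over libraries, with exact 95% intervals, picked left of sorted. Picked libraries lie at 18.4 to 25.5% and sorted ones at 0.766 to 5.61%, and picked progenitor-like and goblet-like wells lie at 22.9 and 28.2%.

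The other members were also counted in wells where no transcript of the pair was drawn. In this comparison, chosen after the shares were seen and given with no test, wells with no Hspa1a or Hspa1b transcript at 1000 transcripts held 2.03, 3.01 and 2.99 Hspa8 transcripts on average in picked replicates, against 0.984 to 1.69 in sorted libraries. The log2 difference of the group means was 0.89 in these wells and 0.93 in all wells. For Hsph1 it was 1.27 in wells without the pair and 1.25 in all wells, for Dnajb1 0.66 and 0.74, for Dnaja1 0.50 and 0.60, for Hsp90aa1 0.24 and 0.22, for Hspe1 0.17 and 0.22, for Hspd1 -0.20 and -0.09 and for Hsp90ab1 -0.41 and -0.32, in the same order. Part of these wells held the pair at full depth. Wells with none at full depth, 50, 120 and 97 in the picked replicates, held 1.14, 3.00 and 2.85 Hspa8 transcripts per 1000, against 0.982 to 1.66 in sorted libraries, so that picked replicate 1 lay inside the sorted range. The 50 wells of replicate 1 include its 10 immune-like wells, which held 679 CPM of Hspa8 and no transcript of the pair. A count of 0 at full depth is also likelier in wells of low depth. The part of class and depth in these values was not tested. In the wells with none at full depth the log2 difference was 0.71 for Hspa8, 0.38 for Dnaja1, 0.08 for Hsp90aa1 and 0.01 for Hspe1. It was 1.36 for Hsph1, 0.83 for Dnajb1, -0.11 for Hspd1 and -0.54 for Hsp90ab1. Correlations between members across the wells of a library were weak: Hspa1a and Hspa1b had Pearson's r of 0.164 to 0.316 in the picked libraries and -0.0150 to 0.512 in the 5 sorted libraries that gave a value. At such counts they are no finding, and all wells of a library share its amplification and sequencing.

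Lists of genes that work with the members were counted in the same fit as the members over all libraries, beside 14.4% of all genes higher and 15.7% lower. Over the chaperone lists, 23 genes were higher and 10 lower, against 12 and 25 with library totals and 12 higher without picked replicate 3. The number of genes tested is given list by list below. Counts with library totals stand beside other shares, as 8.24% of all genes were then higher and 32.8% lower. For GK5a or GK5b libraries alone, and without picked replicate 3, the number of genes tested is not given, and so neither is the share called. List counts under those settings thus cannot be set against such a share. Of the HSP90 co-chaperones, 6 of 14 were higher and none lower, with a median log2 fold change of 0.46. Stip1, which links HSP70 to HSP90, averaged 143 ± 21.9 CPM in picked and 66.9 ± 24.1 CPM in sorted libraries (SD, n = 3 and 7; log2 fold change 1.16; limma, adjusted p = 0.0129), and the immunophilin Fkbp5 22.2 ± 11.9 CPM in picked and 7.61 ± 1.58 CPM in sorted ones. With library totals, 4 of the 14 were higher and 2 lower. Of the HSP70 and HSP40 partners in the cytosol, 5 of 22 were higher and 4 lower, with library totals 2 were higher and 6 lower, and against GK5b libraries alone 2 and 1. The ubiquitin ligase Stub1 was at 25.9 ± 7.31 CPM in picked and 4.87 ± 3.26 CPM in sorted libraries (log2 fold change 2.37; limma, adjusted p = 0.00299), and Bag6 was higher at a log2 fold change of 0.80, while the J-domain genes Dnajc21 and Dnajc7 were lower, at -0.78 and -0.65. Among heat-shock factors and regulators, 4 of 6 were higher and 1 lower, with library totals 2 and 1, and against GK5b libraries alone 1 and 1. The polyubiquitin gene Ubb averaged 220 ± 58.8 CPM in picked and 55.5 ± 19.3 CPM in sorted libraries (log2 fold change 2.00; limma, adjusted p = 0.00025), and the elongation factor gene Eef1a1 was lower, at 4828 ± 652 CPM in picked and 8612 ± 1076 CPM in sorted libraries.

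The other folding compartments were mixed. Of the mitochondrial folding and protease genes, 4 of 14 were higher, among them the protease Clpp (log2 fold change 1.19) and Htra2 (1.37), and 2 were lower, Clpx (-1.06) and Afg3l2 (-0.56). With library totals 2 were higher and 2 lower, and against GK5b libraries alone 3 and none. The cytosolic chaperonin TRiC had 2 of 8 subunits higher, Cct5 (0.79) and Cct7 (0.34), and Cct2 lower (-0.40), and with library totals none was higher and 3 were lower, while against GK5b libraries alone none was called. The Cct5 call was lost with any 1 of the picked libraries left out (0.75 to 0.82) and against GK5b alone (0.23), and Cct7 was called in 8 of 26 settings. Prefoldin, which hands actin and tubulin to TRiC, had 2 of 5 subunits higher, Pfdn1 (1.20) and Pfdn5 (0.83), and a list median of -0.17; with library totals 2 were higher and 3 lower. Of the endoplasmic reticulum chaperones, none of 16 was higher and 2 were lower, Dnajc10 (-1.42) and Canx (-0.64), with a list median of -0.21. Dnajc10 was not called with any 1 of the picked libraries left out (-1.34 to -1.47), and was at -0.89 against GK5a and -2.58 against GK5b libraries alone. With library totals none of the 16 was higher and 8 were lower. Against GK5a libraries alone, 5 of those 16 were higher and 2 lower, and against GK5b libraries alone none was higher and 8 were lower. The counts of this list thus changed with the sorted libraries used. Over all genes, 884 were higher and 568 lower against GK5b libraries alone. More of all genes were also higher than lower against GK5a libraries alone. Whether the list differs from all genes under these settings was not tested. Of the genes named from these lists, Stip1, Fkbp5, Bag6, Dnajc7, Htra2, Clpx, Afg3l2 and Cct2 were also not called against GK5b libraries alone, Stip1 and Htra2 without picked replicate 3, Dnajc21 without picked replicate 1 or 2 and against GK5a libraries alone, and Cct2 without picked replicate 1. Neither of the 2 small heat-shock proteins tested was called. The immediate-early genes, known to be switched on within minutes of dissociation, were higher in 17 of 23 cases and lower in none, with a median log2 fold change of 1.55. With library totals 16 were higher and 1 lower, against GK5a libraries alone 18 and 2, and against GK5b libraries alone 16 and none. The immediate-early genes called higher were so in the same libraries as the stress-induced members, and their part in the result was not tested.

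Among the 10 genes whose counts over wells were most like the sum of Hspa1a, Hspa1b and Dnajb1 were Egr1, Jun, 4930402H24Rik, Fos, Malat1, Cnpy2, Eif4e, Klf6 and Elf3. The mean of the Pearson correlations within libraries, over 1462 genes and 2116 wells thinned to 1000 transcripts, ran from 0.111 for Egr1 to 0.0682 for Elf3. Values this low in sparse counts order the genes and show nothing more.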

How the data were processed

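Each of the 10 libraries is a plate of 384 wells with spike-in RNA, and all plates use the same 384 well positions. The deposited tables hold estimated transcript counts per gene and well, which the authors had corrected for molecules sharing a barcode; 100% of values map back to whole barcode counts within 0.001. Their unit was recorded as other, so no count model was run, although the fixed design allowed for one. The submitters' processing notes name BWA 0.6.2-r126 and the mm10 build, while the counter and its strand setting were not stated.

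Deposited values were summed per library over wells with at least 1000 endogenous transcripts, and per class of well with at least 10 wells. Genes were kept when their sum reached 15 and their level matched 10 transcripts in a library of median size, in no fewer libraries than the smaller group holds; they were scaled by TMM (library totals as an alternative) and tested with limma 3.58.1 (trended variance, R 4.3.3) on log2(CPM + 1), a scale that understates changes of low genes. P-values were adjusted by Benjamini-Hochberg over all genes tested, with calls under 0.05. Class fits had the library as a block, since both classes come from the same plate. Classes needed 2% of a well's transcripts from goblet or enterocyte markers, 4% from Paneth, 1% from enteroendocrine, 0.5% from tuft and 0.3% from immune markers; wells that passed several were set apart. No doublet caller was run. Shares of wells used 1000 barcode counts drawn per well. Counts and tables were handled with Python 3.11.15, numpy 2.4.6, scipy 1.17.1 and pandas 2.3.3, and the fits were tested on simulated data.

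The members and lists were chosen with earlier results of these data known. All members are named; of each further list, the called genes with the 2 largest rises and the 2 largest falls are named, and the 10 genes most like the stress-induced sum over wells; 1 gene that these rules name is not reported here. Gene positions come from the GRCm38 annotation, and promoter sequences from RefSeq. The title code coincides with the group and entered no fit; values within GK5a and GK5b are given where a member's call changed. Alternatives were other scalings, pseudocounts, filters, marker thresholds, thinning depths and left-out libraries.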

Additional observations from a re-analysis of the deposited data

Results flagged for a closer look

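Sorted libraries were searched for a library far from its group, by the gap to its nearest neighbour over the group's whole range. Of 58 groups of values, 7 held such a library, and chance gives about 1 in 20 where values are normally distributed and groups are separate. Many of these groups share transcripts and libraries, so that rate was not established for them. Sorted replicate 1 stood apart for Hspa8 over all wells, at 1212 CPM, and for Hspa1b in goblet-like wells, at 92.5 CPM. Sorted replicate 3 stood apart for Hspa1a over all wells (23.8 CPM), for Hspa1a in progenitor-like wells (27.6 CPM), for the percent of wells with Hspa1a (1.29%), for the ratio of Hspa1a to Hspa1b (0.778) and for Hsp90aa1 in enterocyte-like wells (462.0 CPM). The Hspa1a values come from the same transcripts, so 4 of the flags of replicate 3 are not separate observations. The picked libraries had 53.1 CPM or more of Hspa1a and 2943 CPM or more of Hspa8 over all wells, above every sorted library.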

How the results depend on the processing

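Of the members' values between picked and sorted libraries under other settings, 250 kept their direction and side of the threshold, 7 lost the call, 1 gained it and 2 changed sign. With library totals, 859 genes were higher and 3422 lower (1503 and 1633 with TMM), 5 members were higher and 1 lower, and Hspd1 was at -0.10 (values of single members here are log2 fold changes); with the mean of CPM per well, Hsp90ab1 was at 0.0075. Against GK5b alone 884 genes were higher and 568 lower, and with GK5a summed into 1 library 941 and 516. Leaving out each library in turn gave 7 to 8 members higher. Of the chaperone lists, 23 genes were higher and 10 lower; with totals 12 and 25, against GK5b alone 12 higher, and leaving out a library 12 (without picked replicate 3) to 25 higher.

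Within sorted libraries, class totals put Dnajb1 in goblet-like wells at -0.015. For enterocyte-like wells, class totals left 0 members higher and leaving out a library 0 to 1; Dnajb1 was at -0.23 to 0.16 leaving out a library (above 0 without sorted replicate 1). The fit without the library block called 1 member higher in stem-like wells, and leaving out a library 1 to 3; Hspa1b in stem-like wells was at 0.017 with a pseudocount of 5 and at -0.38 to 0.18 leaving out a library (above 0 without replicates 2, 3, 5 or 7), and Hsph1 at -0.083 to 0.096 (below 0 without replicates 4 or 5). In picked goblet-like wells, 2 members were lower with class totals, 1 with a pseudocount of 5, 1 with doubled marker thresholds and 0 to 1 leaving out a library; Dnaja1 was at -0.36 with doubled thresholds; leaving out a library, Dnaja1 ranged over -0.074 to 0.29, Hspa1a over -0.50 to 0.45 and Hspa1b over -0.014 to 0.66.

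Between picked and sorted progenitor-like wells, class totals gave 5 members higher and 2 lower; Hspd1 was at -0.29 with class totals, and at -0.0074 to 0.047 leaving out a library. For goblet-like wells, doubled thresholds gave 5 members higher and GK5b alone 5; Hsp90ab1 was at 0.0015 and 0.039 in these, and at -0.27 to 0.12 leaving out a library. The difference between the classes leaving out a library was -0.20 to 0.29 for Hsp90ab1 and -0.19 to 0.70 for Dnajb1. Without ribosomal protein genes, Rn45s and Paneth markers in the total, picked minus sorted was 0.219 percentage points for the constitutive sum (0.0787 with them) and 0.0900 for the stress-induced sum (0.0511). The share of wells with Hspa1a or Hspa1b, picked minus sorted, was 28.0 points at 2000 transcripts, 36.4 with no thinning, 2.05 for at least 3 transcripts and 19.95 at 1000; the share in the top 10% of wells was -32.4 with a second seed (-36.3). The cause of these changes was not tested. For class fits under other settings the share of all genes called is not given, so their member counts cannot be set against it. Class fits of picked enterocyte-like and stem-like wells, of stem-like wells at other thresholds and of GK5b enterocyte-like wells were not run, as too few libraries had 10 wells, nor was the top 10% in progenitor-like wells. Depth limits Hspa1a, which was at 0 to 27.8 CPM in sorted goblet-like wells.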
